A study of Mus musculus with 27 samples.

Results

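The tubulin genes of the mouse kidney were followed across 9 durations of warm renal ischemia. These were the rows for 10 symbols, the α-tubulin genes Tuba1a, Tuba1b, Tuba1c and Tuba4a and the β-tubulin genes Tubb2a, Tubb2b, Tubb3, Tubb4b, Tubb5 and Tubb6, out of 19392 genes in the deposited expression table. They were chosen with their levels in these kidneys already known, so their levels and their differences between ischemia times are a description and carry no test. RNA-Seq had been performed on the left kidneys of 27 wild-type C57BL/6 mice. In the uIRIx model the right kidney was removed and the left renal pedicle was clamped at 37 °C. The clamp times were 0 (sham), 16, 18, 20, 22, 24, 26, 28 or 30 min, in 3 mice per time. The left kidney was taken after 24 h of reperfusion. The paper does not state separately whether the sham mice lost the right kidney. No age or sex is given here. Each value is in FPKM, a count of sequenced fragments divided by transcript length and by the total mapped in the library, so that it is corrected for length and levels of different genes can be set side by side.

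Microtubules are hollow filaments built from dimers of 1 α-tubulin and 1 β-tubulin, and each partner is encoded by several genes called isotypes. In tubular epithelial cells microtubules run between the apical and basal poles, carry vesicles to both membranes and form the core of the primary cilium. Dividing cells rebuild them into the mitotic spindle. Cells also hold the amount of tubulin mRNA in check: when free dimers accumulate, a factor that reads the first residues of the nascent tubulin chain marks the mRNA for decay.

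The coding sequences were compared first, since genes this alike can share reads. Of the pairs within the α family, Tuba1a and Tuba1b were the most alike, with 98.3% identical coding bases, followed by Tuba1b and Tuba1c with 97.9% and Tuba1a and Tuba1c with 97.1%. Identity within the α family ranged from 84.8% to 98.3% over 6 pairs. In the β family Tubb2a and Tubb2b were the closest pair at 96.5%, and the 15 pairs ranged from 80.2% to 96.5%. Between the families, identity was 52.4% to 55.4%. The first 30 coding bases are printed because they hold the stretch that the mRNA decay factor reads as protein. Capitals mark the first 4 codons, and the sequences are those of GENCODE transcripts on GRCm38, the build named in the submitters' notes.
Tuba1a: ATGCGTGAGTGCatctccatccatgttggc
Tuba1b: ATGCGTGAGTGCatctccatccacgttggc
Tuba1c: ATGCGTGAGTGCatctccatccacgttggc
Tuba4a: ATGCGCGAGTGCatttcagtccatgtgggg
Tubb2a: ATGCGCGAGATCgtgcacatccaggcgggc
Tubb2b: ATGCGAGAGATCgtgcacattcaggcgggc
Tubb3: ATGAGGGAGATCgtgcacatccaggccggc
Tubb4b: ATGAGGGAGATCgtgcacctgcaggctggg
Tubb5: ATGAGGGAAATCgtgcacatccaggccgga
Tubb6 was not printed. The first 4 codons were the same in Tuba1a, Tuba1b and Tuba1c, and the same in Tubb3 and Tubb4b. In the 4 α genes the 30 bases spanned a splice junction, and in the β genes they lay within 1 exon.

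Tuba1b (chr15:98931429-98934390), Tuba1a (chr15:98949847-98953501) and Tuba1c (chr15:99029891-99038105) lie near each other on chromosome 15, and Tubb2a (chr13:34074278-34078008) and Tubb2b (chr13:34127008-34130354) on chromosome 13. Tuba4a lies at chr1:75214972-75221261, Tubb3 at chr8:123411553-123422015, Tubb4b at chr2:25222158-25224702, Tubb5 at chr17:35833920-35838301 and Tubb6 on chromosome 18. Of the 100-base windows of the main transcript, 65.8% in Tuba1a, 73.0% in Tuba1b and 53.4% in Tuba1c also occurred in a transcript of another gene, as did 36.9% in Tubb2a and 27.7% in Tubb2b. Shared with another of the 10 tubulin genes were 38.4% in Tuba1a, 52.3% in Tuba1b, 53.4% in Tuba1c, 35.9% in Tubb2a and 26.1% in Tubb2b. No window of Tubb3, Tubb5 or Tubb6 was shared. In Tuba4a 46.7% of windows were shared, with Stk16 alone, and in Tubb4b 30.6%, with Fam166a and 3 annotated pseudogene or unnamed entries. Windows were matched on both strands, and in the annotation Tuba4a overlaps Stk16 and Tubb4b overlaps Fam166a in position. The split of reads between Tuba1a, Tuba1b and Tuba1c, and between Tubb2a and Tubb2b, is therefore uncertain, and values for their sums are given as well. Summing does not remove the sharing with genes outside the tubulin set. The strand setting of the counting is not given in the sources used here. Stk16 itself had mean levels of 55.0, 70.6 and 49.9 FPKM at 0, 18 and 30 min, and Fam166a of 7.0 and 13.5 FPKM at 0 and 30 min.

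The 10 genes together held 482 ± 49.1 FPKM (SD, n = 3) in the sham kidneys, which were 536.81, 441.48 and 468.40 FPKM. After 16 min of ischemia the sum was 966 ± 217 FPKM, with kidneys at 966.97, 1182.17 and 747.46. It then stayed between means of 979.9 and 1157 FPKM from 18 to 26 min. After 28 min it was 1415 ± 50.9 FPKM (1473.16, 1379.60 and 1391.72), and after 30 min 1739 ± 155 FPKM (1562.79, 1797.46 and 1856.54). The lowest kidney at 16 min was thus above the highest sham kidney, and the groups at 26, 28 and 30 min did not overlap. As a share of all FPKM in a kidney, tubulin was 0.0897% on average at 0 min and 0.324% at 30 min. In whole-kidney RNA, fewer cells of a type and less RNA per cell cannot be told apart.

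The balance of the families moved little. The ratio of summed α to summed β FPKM averaged 1.42 in sham kidneys, with 1.37 at 20 min as the lowest mean and 1.48 at 28 min as the highest, and ranged from 1.32 to 1.54 over the kidneys at 30 min. The α genes summed to 282.6 ± 30.2 FPKM at 0 min and 1024 ± 99.7 at 30 min (SD, n = 3), and the β genes to 199.6 ± 19.7 and 714.8 ± 69.9.

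**Figure D1:**
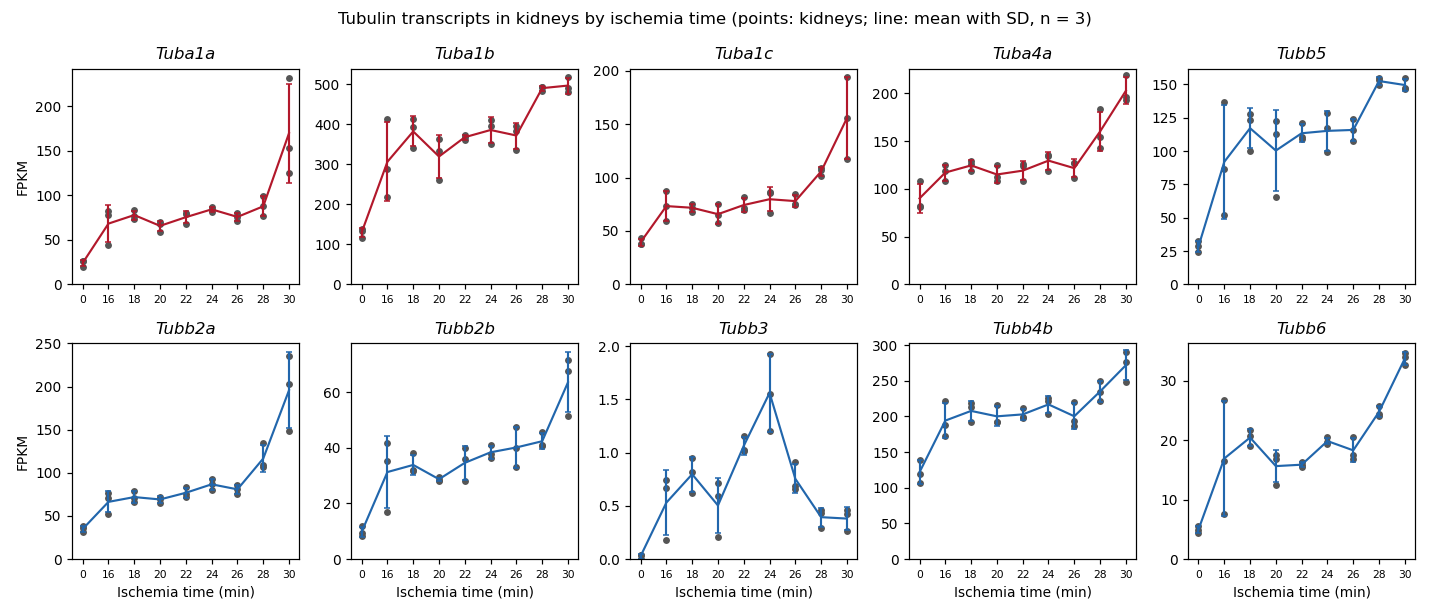
FPKM of the 10 tubulin genes in each kidney (points) with the mean and SD of 3 kidneys (lines, red for α and blue for β) at 9 ischemia times, drawn at even spacing with each vertical axis starting at 0. The other 9 genes have higher means at 16 than at 0 min and higher again at 28 or 30 min, while Tubb3 is highest at 24 min (mean 1.56 FPKM) and low again at 28 and 30 min.

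Differences from the sham group were also computed on log2(FPKM + 1) values after quantile normalization, in a limma fit over all genes. A gene was called when its log2 difference was above 1 in size with a Benjamini-Hochberg adjusted p-value under 0.05 over 18188 genes. At 16 min 5 of the 10 tubulin genes were called higher, beside 1.28% of all genes tested. At 18, 20, 22, 24 and 26 min the number was 5, 5, 6, 7 and 6, beside 1.97%, 1.55%, 2.09%, 1.97% and 2.16% of all genes. Those called at 24 min included Tubb3 (log2 difference 1.26), which was near 0 FPKM in the sham kidneys. With 28 min of ischemia 7 were called (4.27%) and with 30 min 9 (5.14%), and no tubulin gene was called lower at these times. All of these comparisons share the 3 sham kidneys, and nothing is read from the counts because the genes were chosen on these data. The 5 at 16 min became 0 in a fit of the 16 and 0 min groups alone and 3 without replicate 2 at 16 min.

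In FPKM, each of the 10 genes had all 3 kidneys above all 3 sham kidneys at each ischemia time, as did 20.6%, 29%, 26.4%, 29.9%, 29.4%, 29.1%, 35.5% and 33.3% of all genes at 16, 18, 20, 22, 24, 26, 28 and 30 min. Against 0 min, the median log2 difference of the 10 genes was 0.99, 1.21, 1.06, 1.20, 1.4 and 1.31 for 16, 18, 20, 22, 24 and 26 min. For 28 min it reached 1.69, and for 30 min 2.19. Over all genes tested, the median lay between -0.01 and 0.00 at these times.

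**Figure D2:**
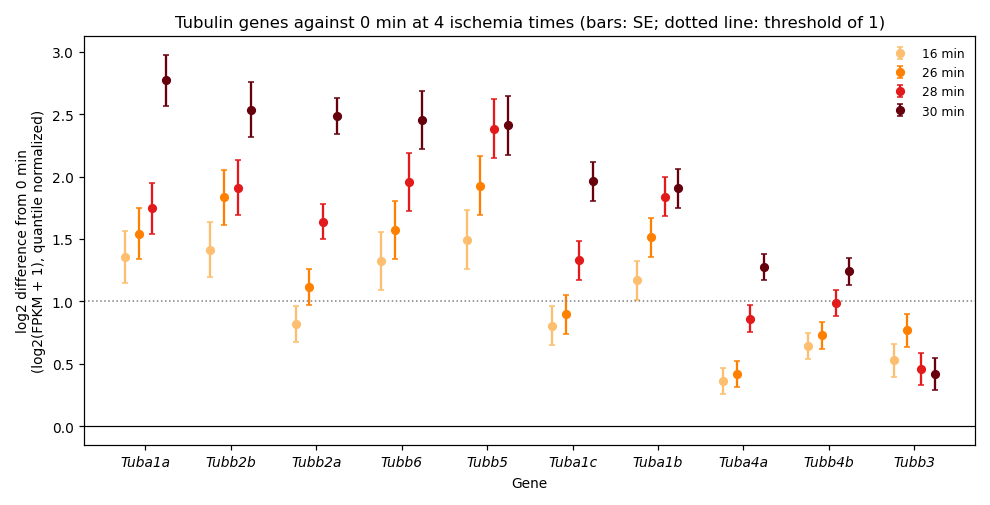
Log2 difference from 0 min (log2(FPKM + 1), quantile normalized) with its SE for each tubulin gene at 16, 26, 28 and 30 min, ordered by the value at 30 min, with a dotted line at 1. Tuba1a is at 2.77 and Tubb3 at 0.42 at 30 min, and Tuba1b and Tubb5 have nearly the same value at 28 and 30 min.

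The genes fell into 3 courses by eye, a grouping formed after the values were seen. Tuba1b and Tubb5 reached their highest means at 28 min or stayed level from there to 30 min. Tuba1a, Tuba1c, Tuba4a, Tubb2a, Tubb2b, Tubb4b and Tubb6 were highest at 30 min. Tubb3 peaked at 24 min.

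Tuba1b, the α isotype found in most cell types, had the highest mean FPKM of the 10 genes at every ischemia time, though its sham kidneys overlapped those of Tubb4b. It was 137.73, 116.18 and 133.89 FPKM in the sham kidneys and 288.74, 412.15 and 217.09 at 16 min. From 18 to 26 min the 15 kidneys ranged from 260.61 to 412.49 FPKM with a median of 367.68. Every kidney at 28 min (482.22, 493.77 and 493.28) lay above that range, as did every kidney at 30 min (489.81, 480.26 and 518.53), and the groups at 28 and 30 min overlapped. The log2 difference from 0 min was 1.17 ± 0.16 (SE) at 16 min, 1.84 ± 0.16 at 28 min and 1.91 ± 0.16 at 30 min.

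Tubb5, the β isotype most typical of growing and dividing cells, followed the same course. Its sham kidneys were at 28.80, 24.08 and 32.19 FPKM. The 16 min kidneys spread widely, at 86.51, 137.01 and 52.25 FPKM, and replicate 3 was the lowest of all the clamped kidneys. The kidneys at 28 min were close together at 149.51, 153.48 and 154.89 FPKM, and those at 30 min at 154.79, 146.55 and 147.45. The 28 and 30 min groups overlapped, and both lay above the highest of the 15 kidneys at 18 to 26 min, 128.80 FPKM. Across the 27 kidneys, the normalized log2 values of Tubb5 and Tuba1b had a Pearson r of 0.992, the highest of the pairs of tubulin genes; the 2 genes share no 100-base window, while the kidneys share their group.

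Tuba1a, an α isotype best known from the developing brain, differed most from Tuba1b between 28 and 30 min. It was 25.78, 19.89 and 26.33 FPKM in the sham kidneys, 77.34, 82.92 and 44.41 at 16 min, and between 59.01 and 86.66 in the 15 kidneys from 18 to 26 min. At 28 min the kidneys were at 98.74, 87.60 and 76.62 FPKM and overlapped those at 26 min. At 30 min they were at 124.63, 152.89 and 231.76, all above the 28 min kidneys. The log2 difference of 30 from 28 min was 1.02 ± 0.20 (SE), and Tuba1a was the only tubulin gene called in this comparison, beside 0.401% of all genes called higher. The call was lost without quantile normalization, at a constant sum per kidney, in the fit of these 2 groups alone, without replicate 3 at 28 min and without replicate 3 at 30 min.

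Tubb2a, a β isotype abundant in nerve tissue, had a larger difference at 30 min than Tuba1c, which was close to it in level in the sham kidneys. Its sham kidneys were at 37.82, 30.82 and 35.85 FPKM, and its kidneys at 16 min at 76.12, 70.22 and 52.59. The 15 kidneys at 18 to 26 min ranged from 64.85 to 92.98 FPKM. At 28 min the values were 134.15, 108.74 and 106.94, and at 30 min 148.46, 235.44 and 203.59, with no overlap between 26, 28 and 30 min. The log2 difference from 0 min went from 0.82 ± 0.14 (SE) at 16 min to 1.64 ± 0.14 at 28 min and 2.48 ± 0.14 at 30 min. Tubb2b, its near twin, went from 11.75, 8.11 and 9.27 FPKM in the sham kidneys to 51.31, 67.64 and 71.53 at 30 min, with 40.86, 45.63 and 40.53 at 28 min, which overlapped the 26 min kidneys.

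Tuba1c had means of 39.4, 73.3, 77.9, 105.7 and 155.6 FPKM at 0, 16, 26, 28 and 30 min. Its kidneys at 30 min were spread from 117.40 to 194.11 FPKM but lay above the highest at 28 min, 108.80. With Tuba1a, Tuba1b and Tuba1c summed before the log, the log2 difference from 0 min was 1.20, 1.52, 1.72 and 2.07 for 16, 26, 28 and 30 min, each with an SE of 0.15. With Tubb2a and Tubb2b summed, it was 1.03, 1.36, 1.81 and 2.53, with an SE of 0.15 to 0.16.

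Tubb6, a β isotype of low abundance in most tissues, differed widely between kidneys early and little late in the series. The sham kidneys were at 4.45, 4.92 and 5.49 FPKM, and the 16 min kidneys at 16.40, 26.79 and 7.51. From there the values were 25.79, 24.40 and 24.04 at 28 min and 34.59, 33.99 and 32.56 at 30 min. The groups at 26, 28 and 30 min did not overlap, and replicate 2 at 16 min lay above the 28 min kidneys.

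Tuba4a and Tubb4b started high and changed least in ratio among the abundant genes. Tuba4a, whose protein lacks the terminal tyrosine that most α-tubulins are made with, was 107.67, 80.69 and 81.55 FPKM in the sham kidneys, 118.17, 108.08 and 124.78 at 16 min, 183.30, 142.89 and 153.82 at 28 min, and 193.13, 195.88 and 218.65 at 30 min. The lowest kidney at 16 min was only just above the highest sham kidney, and the 28 and 30 min groups did not overlap. Tubb4b, a β isotype known from cilia and flagella as well as from many other cells, was 139.50, 119.32 and 106.32 FPKM in the sham kidneys, 187.84, 221.69 and 172.81 at 16 min, and 248.41, 290.24 and 276.66 at 30 min. At 28 min its kidneys (249.50, 221.25 and 234.16) overlapped those at 30 min. The log2 differences at 30 min were 1.27 ± 0.11 (SE) for Tuba4a and 1.24 ± 0.11 for Tubb4b.

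Tubb3, the isotype of neurons, was barely present. It was listed at 0.04, 0.00 and 0.04 FPKM in the sham kidneys, so no fold in FPKM is given against them. Its log2 differences from 0 min rest on the 1 FPKM added before the log. Its values were 0.74, 0.67 and 0.18 FPKM at 16 min, 1.02, 1.01 and 1.16 at 22 min and 1.20, 1.55 and 1.93 at 24 min. They were 0.66, 0.69 and 0.91 at 26 min, 0.29, 0.43 and 0.46 at 28 min and 0.26, 0.46 and 0.42 at 30 min. The 24 min kidneys lay above all others, and the 28 min kidneys lay below those at 26 min, as they did for 16.4% of all genes. At 24 min Tubb3 made up 0.328% of β-tubulin FPKM. Of the 9 nerve markers looked up, 7 were in the table, and their summed level was 2.0 FPKM on average at 0 min (1.78 to 2.22), 4.63 at 24 min (4.33 to 5.12) and 17.3 at 30 min (15.27 to 19.43). Uchl1 carried most of that sum, at 1.36 FPKM at 0 min and 16.3 at 30 min, while Snap25 was at 0 and 0.0167 and Elavl4 at 0 and 0.0233. Fibroblast and pericyte markers summed to 36.85 FPKM at 0 min (34.87 to 38.71), 155.6 at 24 min (136.57 to 178.17) and 65.31 at 30 min (35.38 to 100.56). Their mean, too, was highest at 24 min. Most of the rise by 26 min was in Col1a1, at 3.81 and 51.5 FPKM at 0 and 26 min, and Col3a1, at 4.78 and 55.6. At the same times Pdgfrb was at 6.53 and 14.3 FPKM, Pdgfra at 4.09 and 4.34 and Dcn at 17.6 and 11. The part of nerve, fibroblast or pericyte cells in the Tubb3 level was not tested.

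Between 26 and 28 min of ischemia, 7 of the 10 genes had all 3 kidneys higher, namely Tuba1b, Tuba1c, Tuba4a, Tubb2a, Tubb4b, Tubb5 and Tubb6, beside 20% of all genes. No tubulin gene passed the fold threshold there: the log2 differences ran from -0.31 for Tubb3 to 0.53 for Tubb2a, with a median of 0.36. Between 28 and 30 min, 6 genes had all 3 kidneys higher, beside 11.9% of all genes, with a median log2 difference of 0.46. These were Tuba1a, Tuba1c, Tuba4a, Tubb2a, Tubb2b and Tubb6. From 16 to 26 min the log2 differences were small, from 0.06 for Tuba4a to 0.43 for Tubb5.

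The mix of isotypes differed between ischemia times. Within the α genes, Tuba4a made up 31.7% of the FPKM at 0 min and 18.9% at 28 min, while Tuba1b went from 45.8% to 58.1%. At 30 min Tuba1b was back to 48.7% (46.1% to 53% over the kidneys). Tuba1a, at 8.48% at 0 min and 10.4% at 28 min, made up 16.3% at 30 min (13.5% to 20.6%). That range overlapped the Tuba1a shares at 16 min (9.97% to 13.9%). The shares of Tuba1a, Tuba1b and Tuba1c, and of Tubb2a and Tubb2b, rest on the uncertain split of their reads. Within the β genes, Tubb4b made up 60.9% in sham kidneys, 49.4% after 16 min, 41.1% after 28 min and 38.1% after 30 min. Tubb5 went from 14.3% at 0 min to 26.7% at 28 min and 21.1% at 30 min. Tubb2a held between 16.0% and 18.1% from 0 to 26 min and reached 20.3% at 28 min and 27.2% at 30 min.

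**Figure D3:**
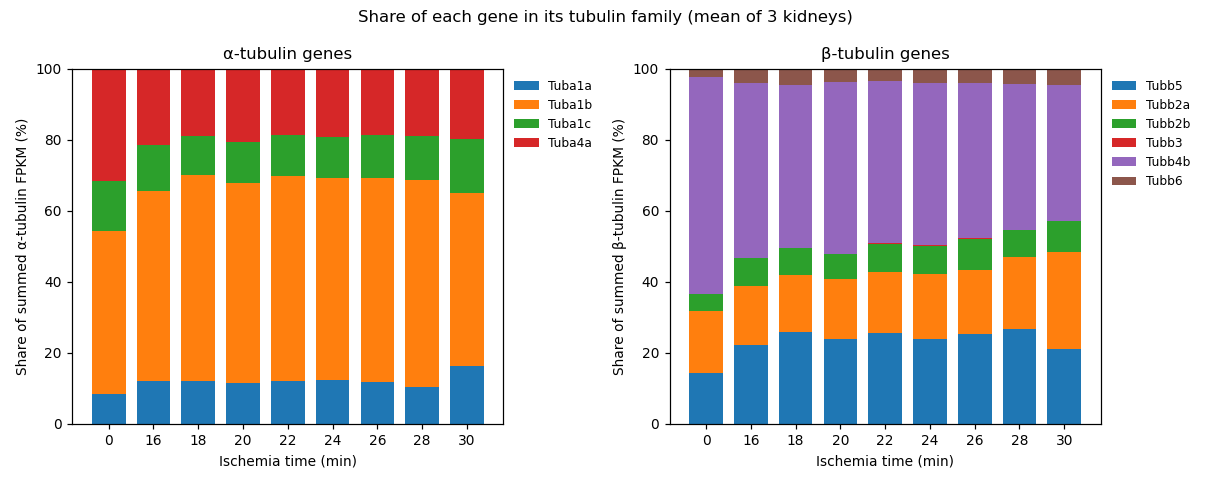
Share of each gene in the summed FPKM of its tubulin family (percent, mean of 3 kidneys) at 9 ischemia times, α genes on the left and β genes on the right. Tubb4b shrinks from 60.9% to 38.1% of β-tubulin, Tuba4a from 31.7% to 19.8% of α-tubulin, and Tubb2a and Tuba1a widen at 30 min. The split of reads between Tuba1a, Tuba1b and Tuba1c, and between Tubb2a and Tubb2b, is uncertain.

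The 250 bases before the RefSeq start site are shown for 5 genes, because they stand for the different courses: Tuba1b and Tubb5, which moved together, Tuba1a and Tubb2a, which were highest at 30 min, and Tubb4b, which changed least among these. The RefSeq promoter table (GRCm38.p6) held 8 of the 10 genes and lacked Tubb2b and Tubb6. Capitals mark the motifs searched on both strands: the TATA box, spelled TATAAA, the CCAAT box, spelled as its name says, and the GC box, spelled GGGCGG.
Tuba1b, chr15:98934391-98934640, minus strand: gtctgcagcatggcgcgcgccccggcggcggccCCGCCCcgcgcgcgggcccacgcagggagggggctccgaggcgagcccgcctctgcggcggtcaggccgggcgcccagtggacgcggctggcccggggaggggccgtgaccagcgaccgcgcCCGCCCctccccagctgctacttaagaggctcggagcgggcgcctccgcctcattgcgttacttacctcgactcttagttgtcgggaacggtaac
Tubb5, chr17:35838302-35838551, minus strand: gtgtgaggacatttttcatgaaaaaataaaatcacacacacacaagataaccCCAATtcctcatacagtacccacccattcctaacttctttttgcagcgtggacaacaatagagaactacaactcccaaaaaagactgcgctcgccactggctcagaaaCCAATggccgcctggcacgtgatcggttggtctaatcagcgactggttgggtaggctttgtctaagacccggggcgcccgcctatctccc
Tuba1a, chr15:98953502-98953751, minus strand: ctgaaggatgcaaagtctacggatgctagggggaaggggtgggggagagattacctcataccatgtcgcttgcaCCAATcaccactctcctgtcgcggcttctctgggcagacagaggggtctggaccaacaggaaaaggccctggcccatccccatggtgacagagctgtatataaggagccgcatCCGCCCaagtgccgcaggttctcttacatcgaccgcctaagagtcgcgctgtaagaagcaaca
Tubb2a, chr13:34078009-34078258, minus strand: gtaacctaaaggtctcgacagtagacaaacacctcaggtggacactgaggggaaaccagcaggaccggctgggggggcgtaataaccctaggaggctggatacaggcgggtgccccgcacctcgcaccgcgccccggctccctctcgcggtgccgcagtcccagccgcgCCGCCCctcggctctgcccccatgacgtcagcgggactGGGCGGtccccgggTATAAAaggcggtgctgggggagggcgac
Tubb4b, chr2:25224703-25224952, minus strand: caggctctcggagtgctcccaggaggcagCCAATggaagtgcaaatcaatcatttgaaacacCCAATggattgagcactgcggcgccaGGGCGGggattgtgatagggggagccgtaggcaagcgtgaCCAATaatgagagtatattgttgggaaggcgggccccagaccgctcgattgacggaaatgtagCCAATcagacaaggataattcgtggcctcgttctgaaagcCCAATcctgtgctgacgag
A TATA box was found in 1 of the 8 genes, Tubb2a, where it began 29 bases before the start, and in 12.4% of 32851 mouse promoters of the same length. A CCAAT box was found in 5 of 8 and in 33.8% of all promoters, with 5 matches in Tubb4b and 2 in Tubb5. A GC box was found in 6 of 8 and in 32.7% of all, with none in Tubb5 or Tuba1c. Of other motifs, the TEAD motif GGAATG occurred in 1 gene, Tubb5 (12.6% of all promoters), and the cell cycle element CHR (TTTGAA) in 1, Tubb4b (16.0%). The AP-1 motif TGANTCA (6.75% of all promoters) and the CArG box (1.47%) were not in any of the 8 windows. GC content was 75.6% in Tuba1b and 49.2% in Tubb5, beside a median of 52.4% over all promoters.

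Other α- and β-tubulin genes in the table were low. Tuba3a, Tuba3b, Tubal3 and Tubb1 stayed at means of 0.103 FPKM or below at every time. Tuba8 was 1.07 FPKM at 0 min and 1.85 at 30 min. Tubb4a, a brain isotype, followed a course like that of Tubb3, with means of 0.340 FPKM at 0 min, 1.57 at 24 min and 0.467 at 28 min. No test was made on these genes.

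Most other genes of the microtubule system were not called. Lists of 108 genes were taken, all of them tested: tubulin folding cofactors, γ-tubulin and nucleation, mRNA autoregulation, plus-end and minus-end proteins, lattice-binding microtubule-associated proteins (MAPs), depolymerising and severing proteins, and enzymes that modify tubulin. At 30 against 0 min, 2 of the 108 rose and 1 fell, beside 10.7% of all genes called in either direction. An unadjusted p under 0.05 was found for 70 of them (64.8%), against 56.7% of all genes tested in this comparison. The counts were 1 at 16 min (beside 2.25%), 3 at 26 min (3.77%) and 2 at 28 min (8.48%). They depend on the value added before the log: with 0.1 FPKM, 9 of the 108 rose and 3 fell at 30 min. The share of all genes called at that setting is not given here. The median log2 difference of the 108 genes was 0.06 at 16 min and 0.10 at 30 min.

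Among MAPs, Map4, the main microtubule-stabilising MAP outside neurons, was 15.52, 16.17 and 15.81 FPKM in the sham kidneys, 33.79, 34.23 and 32.57 at 28 min and 36.34, 40.61 and 44.36 at 30 min. The 30 min kidneys lay above all the others, and the log2 difference from 0 min was 1.24 ± 0.12 (SE; adjusted p = 3.61e-08, limma). Map7d1, a relative of the kinesin-1 recruiter Map7, went from a mean of 11 to 25.2 FPKM and rose by 1.03 ± 0.13 (adjusted p = 1.46e-06, limma), a call lost without sham replicate 1 or without replicate 3 at 30 min. The other 20 MAPs were not called, and the list had a median of 0.34.

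Among the depolymerising and severing proteins, 3 genes were called at 1 or more times. Kif2c, a kinesin that takes microtubule ends apart in mitosis, had means of 0.187, 2.22, 2.05 and 0.417 FPKM at 0, 16, 26 and 30 min. It rose by 1.28 ± 0.32 on the log2 scale at 16 min (SE; adjusted p = 0.00884, limma), a call lost in the fit of the 2 groups alone and without replicate 2 at 16 min. At 26 min it rose by 1.28 (adjusted p = 0.00495). Stmn1, which binds and sequesters tubulin dimers, was 51.90, 37.28 and 42.77 FPKM in the sham kidneys, 95.21, 126.34 and 83.66 at 26 min and 52.65, 39.48 and 28.98 at 30 min. It rose by 1.11 ± 0.26 at 26 min (adjusted p = 0.00287, limma; lost without replicate 2 at 26 min), and at 30 min its kidneys overlapped the sham kidneys. Fignl1, a relative of the severing enzyme fidgetin that also acts in DNA repair, had means of 0.607, 4.25, 6.04 and 2.37 FPKM at 0, 26, 28 and 30 min. It rose at 26 min by 1.59 (adjusted p = 0.000371) and at 28 min by 2.02 (adjusted p = 8.29e-06), and from 28 to 30 min it fell by 1.04 (adjusted p = 0.0211, limma). The fall was the one call among the 108 genes in that comparison (1.05% of all genes) and was lost without replicate 2 or replicate 3 of either group and in the fit of the 2 groups alone.

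Among enzymes that modify tubulin, Agbl3, a carboxypeptidase that trims glutamates from tubulin tails, fell from 8.45, 8.20 and 9.26 FPKM in the sham kidneys to 3.46, 4.35 and 3.08 at 28 min and 3.8, 4.55 and 3.93 at 30 min. It fell by 1.16 ± 0.10 on the log2 scale at 28 min (SE; adjusted p = 2.85e-08, limma) and by 1.03 ± 0.10 at 30 min (adjusted p = 5.43e-08). The call at 30 min was lost without quantile normalization, at a constant sum per kidney, and without sham replicate 3 or replicate 1 or 3 at 30 min. The other 23 enzymes were not called at either time.

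In 4 lists no gene was called by limma at 16, 26, 28 or 30 min. Of the 13 folding cofactors and prefoldin subunits, 11 had an unadjusted p under 0.05 at 30 min (84.6%, against 56.7% of all genes), and their log2 differences ran from -0.64 to 0.79 with a median of 0.34. The 15 γ-tubulin and nucleation genes had a median of -0.05 at 30 min (10 under an unadjusted 0.05, or 66.7%), and Tubg1, the main γ-tubulin, was 15.3 FPKM at 0 min and 26.3 at 30 min. The 16 plus-end and minus-end proteins had a median of 0.04 (7 under an unadjusted 0.05, or 43.8%), and the 3 autoregulation genes Ttc5, Scaper and Cnot11 a median of -0.01 (1 under an unadjusted 0.05, or 33.3%). In the 8 subunits of the CCT chaperonin, which folds tubulin and actin, the median was 0.54 at 30 min, with 7 under an unadjusted 0.05 (87.5%) and none past the fold threshold. These shares stand beside the same 56.7% of all genes, and nothing particular to a list is read from them.

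**Figure D4:**
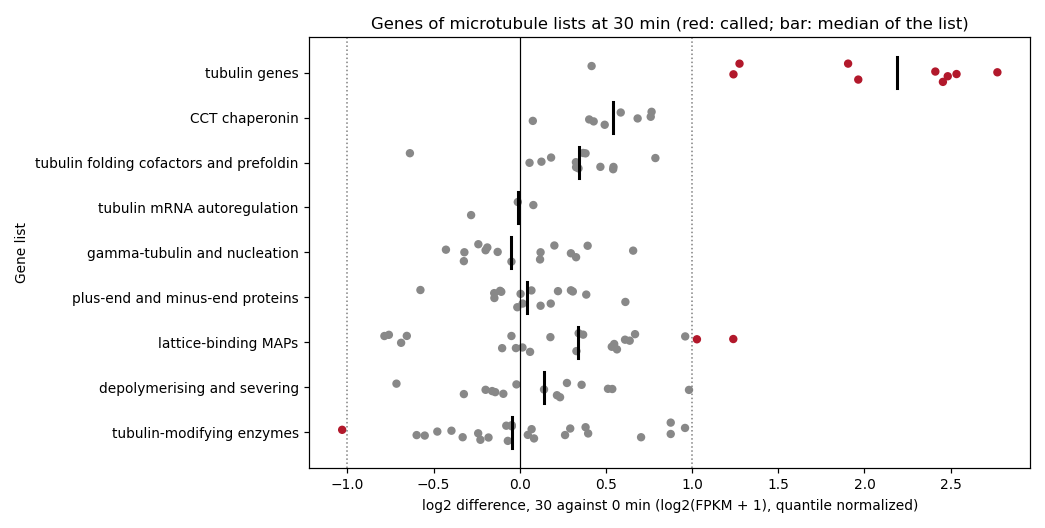
Log2 difference of 30 from 0 min for each gene of the microtubule lists (points, red where called, spread vertically only for legibility), with the median of each list as a black bar and dotted lines at -1 and 1. The tubulin genes, shown as a description, have a median of 2.19, and the other lists have medians from -0.05 to 0.54.

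Between 26 and 28 min no gene of the 108 was called by limma, beside 1.5% of all genes. An unadjusted p under 0.05 was found for 32 (29.6%), against 31% of all genes. The median log2 difference was 0.03.

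The genes whose levels went most like the summed tubulin FPKM were sought among all other genes by Pearson r over the 27 kidneys, which share their groups and libraries. Lamc1, a laminin chain of basement membranes, was first with r = 0.972, followed by Plp2 (0.969), Lgals3 (0.966), Tmsb10 (0.965), Shisa4, Tpm4, Flna, Pfn1, Cfl1 and 1810055G02Rik (0.960). Tmsb10, Tpm4, Flna, Pfn1 and Cfl1 encode actin-binding proteins, and Lgals3 a galectin. Plp2 went from 27.1 FPKM at 0 min to 218 at 30 min, and Pfn1 from 252 to 648.

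Marker genes of kidney cell types were summed in each kidney and set beside the tubulins. Proximal tubule markers (6 of 6 in the table) fell from 4466 FPKM on average at 0 min (4170.96 to 4677.63) to 3425, 1799 and 1140 after 26, 28 and 30 min (1020.64 to 1215.71 in the last), and 5 of the 6 were called lower at 30 min, beside 5.59% of all genes. Markers of tubular injury, Havcr1, Lcn2, Krt8, Krt18, Sox9 and Vcam1, went from 112.6 FPKM (83.97 to 169.66) to 774.7, 1062, 2564 and 3981 after 16, 26, 28 and 30 min (2966.29 to 5285.23 in the last), and 5 of the 6 were called higher at 30 min, beside 5.14% of all genes. Replicate 3 at 16 min stood apart: its injury markers summed to 161.65 FPKM against 897.45 and 1265.11 in the other 16 min kidneys, and its tubulin sum was the lowest of the clamped kidneys. Without it, the median log2 difference of the tubulin genes at 16 min was 1.18 in place of 0.99.

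Dividing-cell markers took another course. The 11 genes summed to 9.93 FPKM at 0 min (6.46 to 12.96), 77.3 at 16 min (43.14 to 119.32) and 21.9 at 30 min (15.31 to 34.46), with means of 86.4 and 48.4 at 26 and 28 min, and the number called higher was 11 at 16 min (beside 1.28% of all genes), 11 at 26 min (2.16%), 7 at 28 min (4.27%) and 0 at 30 min (5.14%, with 2 of the 11 under an unadjusted 0.05, limma). The tubulin sum was highest at 30 min, while the sum of the dividing-cell markers was higher at each time from 16 to 28 min than at 30 min.

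Markers of other cells were summed in the same way, and their calls at 30 against 0 min stand beside 5.14% of all genes called higher and 5.59% called lower. All 5 red cell markers were called higher. Their sum was 645.25, 204.58 and 123.17 FPKM in the sham kidneys and 1348.37, 1469.87 and 795.88 at 30 min, and the sham mean of 324.3 rested on the first kidney: without it, an alternative chosen after the values were seen, the mean was 163.9 and 5 were still called higher. Neutrophil markers summed to 8.38 FPKM at 0 min and 23.3 at 30 min, with 2 of 5 called higher. Macrophage and monocyte markers summed to 35.2 and 68.9 FPKM, but 2 of the 6 were called higher and 2 lower and their median log2 difference was -0.13. Cd68, a lysosomal protein of macrophages, went from 3.38 to 28.2 FPKM, and Csf1r, the receptor for macrophage colony-stimulating factor, from 15.8 to 6.69. No podocyte marker of 4 (49.9 and 94.2 FPKM) and no endothelial marker of 5 (69.8 and 114.5 FPKM) was called by limma, and 2 and 3 of them had an unadjusted p under 0.05. Motile cilia markers, 4 of 5 in the table, were at 1.4 FPKM at 0 min and 4.3 at 16 min. They were between 2.65 and 3.3 from 18 to 28 min, and at 1.79 at 30 min. At 16 min 1 was called higher, beside 1.28% of all genes, and at 30 min none (1 under an unadjusted 0.05, limma). Foxj1, the regulator of motile cilia genes, was at 0.15 FPKM at 0 min and 1.85 at 16 min (0.38 to 3.97). At these times Rsph1 was at 1.18 and 2.32 FPKM, Tekt1 at 0.05 and 0.103 and Dnah5 at 0.0267 and 0.0233. Loop and distal tubule markers summed to 2037 FPKM at 0 min and 1230 at 30 min (634.40 to 2401.08), and 4 of 5 were called lower. Of 4 collecting duct markers (347.6 and 346.7 FPKM), 1 was called lower. Their mean at 30 min rested on replicate 3, with kidneys at 222.58, 239.06 and 578.35 FPKM. The sham kidneys were at 429.11, 270.08 and 343.49 FPKM. Fibroblast and pericyte markers summed to 36.85 and 65.31 FPKM, with 2 of 5 called higher and 1 lower. None of the 6 T, B and NK cell markers (1.94 and 0.343 FPKM) was called by limma, and 3 had an unadjusted p under 0.05. The part of these cell types in the tubulin levels was not tested.

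**Figure D5:**
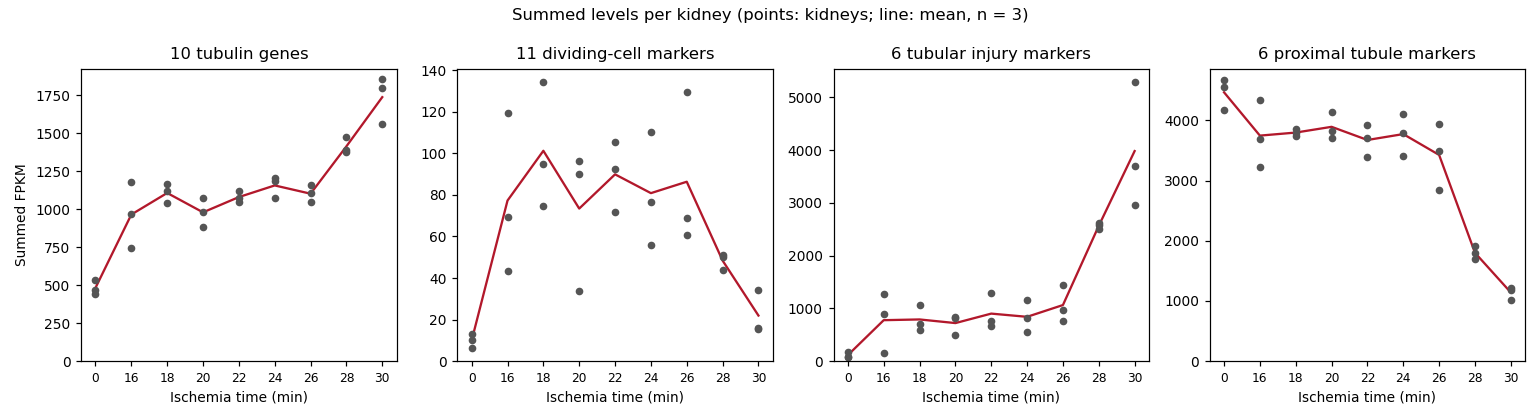
Summed FPKM per kidney (points) and mean of 3 kidneys (line) for the 10 tubulin genes, 11 dividing-cell markers, 6 tubular injury markers and 6 proximal tubule markers at 9 ischemia times, drawn at even spacing with axes starting at 0. The tubulin and injury sums are highest at 30 min (means 1739 and 3981), the dividing-cell sum is highest at 18 min (101.3) and the proximal tubule sum falls to 1140 at 30 min.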

How the data were processed

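The authors deposited FPKM values, rounded to 2 decimals, for 19392 gene symbols in 27 kidneys. The submitters' notes list Bowtie2, RSEM and DESeq2, without versions, and build GRCm38.p6. The paper calls the unit RPKM. Its quantile normalization is not in the deposited values. Read counts were not used here, so depth is unknown and precision rests on 3 mice per time. Whole-read steps were sought in low values, and 29.7% of 59490 values lay within 0.1 step of a whole number. That search cannot decide whether such steps exist. It used the same step for a gene in all kidneys and left out genes with the smallest values above 0.

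The members, the gene lists and the rule for named genes (all tubulins; per list, up to 3 called genes with the largest change at 30 against 0 and at 28 against 26 min; the 10 genes most like the tubulin sum) were chosen with earlier results of these data known. Genes outside that rule, such as those called at 16, 26 or 28 min, were named after their values were seen. Kidneys were grouped by labelled ischemia time. Values were taken as log2(FPKM + 1), quantile normalized and fitted in limma 3.58.1 (R 4.3.3) with 1 mean per time, over 18188 genes above 0 FPKM in at least 3 kidneys. The steps were tested on simulated data. Sequences were read with Biopython 1.88 from GENCODE and RefSeq, and figures drawn with matplotlib 3.10.9. Alternatives were another pseudocount, scaling, filter, variance prior or set of groups, a replicate block, summed paralogs and leaving out each kidney.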

Additional observations from a re-analysis of the deposited data

How the results depend on the processing

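Of the counts of microtubule genes called and the medians of the tubulin genes, 166 recomputed values stayed within the set limits and 30 moved. The limits were 1.5-fold for a count and the median within-group SD of the tubulin genes for a median. No median changed direction, and a count has no direction to reverse. With a pseudocount of 0.1 FPKM, the microtubule genes called were 6 at 16, 9 at 26, 11 at 28 and 12 at 30 against 0 min, in place of 1, 3, 2 and 3, and 2 at 28 against 26 and 3 at 30 against 28 min, in place of 0 and 1. At a constant sum per kidney they were 3 at 16, 6 at 28 and 6 at 30 against 0 min, and without quantile normalization 4 at 28 min. With only the 2 groups compared they were 0 at 16 against 0 and 0 at 30 against 28 min. Leaving out each kidney in turn gave 0 to 3 at 16 against 0 min (0 without 16 min replicate 2, 2 without 0 min replicate 1 or 3 or 16 min replicate 1, and 3 without 16 min replicate 3) and 0 to 2 at 30 against 28 min. The median log2 difference of the tubulin genes with a pseudocount of 0.1 was 1.28 at 16, 1.55 at 18, 1.30 at 20, 1.51 at 22, 1.62 at 24 and 1.55 at 26 min, and at a constant sum 1.5 at 22 and 1.69 at 24 min. The cause of these shifts was not tested.

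The replicate numbers did not pair the kidneys: deviations of same-numbered kidneys from different times had correlations from -0.416 to 0.48 (median -0.009, 108 pairs), beside a median of -0.01 for different numbers. A fit with the replicate number as a block gave 1, 3, 2, 3, 0 and 1 called microtubule genes, the counts without it. With no depth per kidney, levels under about 1 FPKM, such as Tubb3 and Kif2c at 0 min, rest on the pseudocount: the Tubb3 difference at 30 min was 0.42 with 1 FPKM and 1.86 with 0.1 FPKM.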

Other observations

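Among the 6 actin genes, whose products form the other main filament of the tubule cell, 3 rose at 30 against 0 min, beside 5.14% of all genes called higher. Acta2, the actin of smooth muscle and myofibroblasts, was 8.69, 8.66 and 11.56 FPKM in the sham kidneys and 68.84, 48.69 and 176.95 at 30 min, and rose by 3.0 ± 0.37 on the log2 scale (SE; adjusted p = 1.18e-06, limma). Actb, the cytoplasmic β-actin, went from a mean of 466 to 1230 FPKM and rose by 1.11 ± 0.11 (adjusted p = 5.96e-08, limma). Actg2 rose by 1.38 (adjusted p = 0.0241, limma), but 1 kidney at 11.29 FPKM stood against 0.31 and 0.83 in the other 30 min kidneys. Its call was lost without that kidney, without sham replicate 1 or 2 and in the fit of the 2 groups alone, and its adjusted p over the alternatives ranged from 0.00184 to 0.28. Actg1, the most abundant actin at 0 min, went from 711 to 1550 FPKM and was not called.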
